A study of Sus scrofa with 50 samples.

Results

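Transcripts that were abundant in porcine morulae and scarce both before and after that stage were examined. A gene was chosen when, in embryos of both sources, its mean in the 10 morulae was at least 50 CPM (reads of a gene per M reads of a scaled library, as deposited) and at least 5 times its mean in the 5 4-cell embryos and in the 10 hatched blastocysts. Of 30321 gene identifiers, 24 met these levels and 6 of them belonged to 16 genes that were set aside by name, which left 18 genes. The 18 were chosen by their stage means of CPM, so the peak itself is described here with no test. A gene symbol is given for 13 of the 18 (NUCB2, F2R, SLC15A1, FAM151A, DUSP1, ACOT11, SPIC, CYP26A1, SMIM1, GPT2, PORCN, SLC34A2 and NEFL), and 5 are known only by a LOC number. The annotation lists 16 of the 18 as protein coding and 2 as lncRNA.

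The RNA of 50 single embryos was sequenced, 1 library per embryo. In vitro produced embryos (5 4-cell embryos, 10 morulae and 10 hatched blastocysts) were collected 48 h, 100 h, and 7 days and 6 h after fertilization, from oocytes of abattoir ovaries that were matured and fertilized in culture over several experiments. In vivo developed embryos (5, 10 and 10) were flushed from German Landrace × Pietrain gilts 2, 4 and 6 days after insemination. Sperm of the same Duroc boar was used for both, frozen for the in vitro embryos. Gilts were synchronized with altrenogest and given PMSG and hCG. Oocytes in vitro were matured with FGF2, LIF, IGF1, hCG and PMSG. In vitro 4-cell embryos and morulae came from embryos preselected at an earlier cleavage stage. The sources therefore differ in oocyte donors, hormones, preselection, age at collection and culture together, and these cannot be told apart. The breed of the oocyte donors in vitro is not given in the sources used here. Which gilt or experiment an embryo came from is not given, so the p-values below measure the spread between embryos and take no account of shared litters or culture runs. No added agent was compared between embryos, and no genetic change is described.

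In the pig the embryo relies on stored maternal RNA until about the 4-cell stage, when its own genome is switched on. The cells then compact into a morula, in which outer and inner cells begin to take different paths, and a cavity and a first epithelium, the trophectoderm, follow in the blastocyst. Transcripts that are high in morulae and low at both flanking stages therefore rise after the 4-cell stage and fall by hatching. No embryos were sampled between these stages, so the width of that window is not known here. Not all of the chosen genes were absent at the flanking stages (values below). Several of the chosen genes belong to well known signalling routes. Thrombin receptors signal at the cell surface, dual-specificity phosphatases switch off MAP kinases, retinoic acid is removed by cytochromes of the CYP26 family, and Wnt proteins need a lipid added by PORCN before a cell can release them.

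Depth was recovered from the steps of the CPM values. In the 49 embryos used for count tests it averaged 4.20 ± 1.29 M reads (SD). It ranged between 1.44 and 7.71 M there, so that 1 read was worth between 0.133 and 0.870 CPM. The in vivo 4-cell embryo B1 gave 8.63 M reads, at 0.101 CPM per read. It was left out of count tests because that step lies near a round decimal number. Under 2 M reads were left for 3 embryos (in vivo morula F1, in vitro hatched blastocysts D3 with E4). Marker lists were summed to check the stage labels. The 20 maternal transcripts summed to 3417 CPM or more in every 4-cell embryo, and to at most 3081 in a morula and 221 in a hatched blastocyst. Trophectoderm genes summed to at most 778 CPM in a 4-cell embryo to at most 880 CPM in an in vitro and 5094 CPM in an in vivo morula, and to 4663 or more in every hatched blastocyst, so this list does not separate the last stages in vivo. The study described poorer RNA or library quality in part of the 4-cell and morula libraries and compared the sources at the hatched blastocyst stage only, and the part of library quality in the source differences below was not tested. Smart-seq2 reads carry no strand, so reads of overlapping genes cannot be told apart. A level per embryo also cannot tell fewer expressing cells from less RNA per cell.

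Together the 18 genes made up a small share of the RNA at the flanking stages and a larger one in morulae. Their summed level had a lowest, median and highest value of 131.5, 163 and 406 CPM in in vitro 4-cell embryos, of 1731, 3925 and 5343 CPM in in vitro morulae, and of 179, 278 and 402 CPM in in vitro hatched blastocysts. In vivo the same values were 2.45, 173 and 248 CPM at the 4-cell stage, 1339, 2116 and 6797 CPM in morulae, and 146, 200.1 and 277 CPM after hatching. Every morula thus lay above every embryo of the other stages in its source, and all 18 genes were detected in each of the 20 morulae. Between 9 and 18 of the genes were detected in an in vitro 4-cell embryo and between 2 and 9 in an in vivo one. Of all genes, between 16059 and 17686 were detected in an in vitro 4-cell embryo and between 6209 and 13520 in an in vivo one. The study names RNA quality, low input and cDNA yield as a possible reason for the low number in vivo.

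The 4 ratios that the choice used covered a wide range. In vitro, morulae over 4-cell embryos gave a lowest, median and highest ratio of means of 6.30, 36.9 and 125, and morulae over hatched blastocysts 5.07, 22.5 and 219.5. In vivo, morulae over hatched blastocysts gave 8.01, 16.3 and 119. No read was found in any in vivo 4-cell embryo for 7 genes (FAM151A, ACOT11, SPIC, SLC34A2, NEFL, LOC106507156 and LOC100737508), which leaves them without a ratio there. As fewer genes of any kind were detected in those embryos, a lack of reads does not show that a transcript was absent. The other ratios of in vivo morulae over 4-cell embryos lay between 5.83 and 239 with a median of 18.6. PORCN and LOC106509317 were over 10-fold on all 4 ratios, and FAM151A, ACOT11, SLC34A2, NEFL and LOC106507156 on the 3 that they have. None of the 18 was at 0 in every in vitro 4-cell embryo.

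Just inside the 5-fold bound were SLC15A1 (smallest ratio 5.07), SMIM1 (5.83) and SPIC (5.97), and just outside it were ETNPPL (4.91), HENMT1 (4.62) and FAM118B (4.37). Just inside the bound of 50 CPM, by the lower of their 2 morula means, were SLC34A2 (52.3 CPM), NEFL (52.4 CPM) and GPT2 (54.8 CPM), and just outside it were DPRX (46.4 CPM), LOC100521229 (43.9 CPM) and ZBTB8A (42.7 CPM). The genes near either bound therefore depend on it. Without the in vivo morula A3, GPT2, NEFL and SMIM1 no longer met the levels (15 genes left), and without the in vivo morula G1, SLC34A2 and SMIM1 did not (16 left). DUSP1 and SMIM1 fell outside without the in vivo 4-cell embryo B1 or C1, DUSP1 without A1, and SLC15A1, NEFL or SLC34A2 without single in vitro embryos. Of 74 genes that met the levels in vitro, 32.4% also met them in vivo, and of 44 that met them in vivo, 54.5% also met them in vitro.

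**Figure D1:**
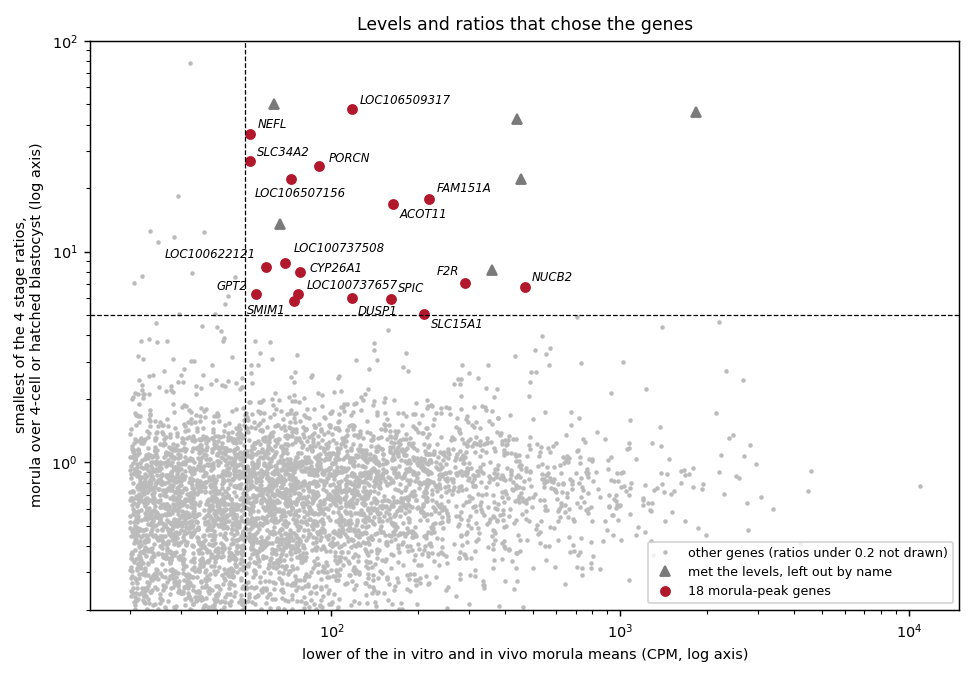
Smallest of the 4 ratios of mean CPM (morula over 4-cell or hatched blastocyst, in vitro and in vivo) against the lower of the in vitro and in vivo morula means, both on log axes, with 1 point per gene. Dashed lines stand at 5-fold and 50 CPM. Red circles are the 18 genes, triangles the 6 that were set aside by name, and SLC15A1 at 5.07 lies nearest to the 5-fold line.

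In single embryos the peak was mostly complete. For 13 of the 18 genes every in vitro morula lay above every in vitro embryo of the other stages, and for 13 every in vivo morula did so, with 10 genes in both sets. Over all genes tested, this was so of 1.43% in vitro and 0.615% in vivo. The choice used the same contrast, so these counts are a description. In vitro the exceptions were NUCB2, F2R, SPIC, LOC100737657 and LOC100737508, each with 1 morula that was not above, and for NUCB2, F2R and SPIC this was embryo B2. In vivo the exceptions were NUCB2 with 1 such morula, CYP26A1 with 3, DUSP1 and LOC100737657 with 4 each, and SMIM1 with 6 of 10.

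**Figure D2:**
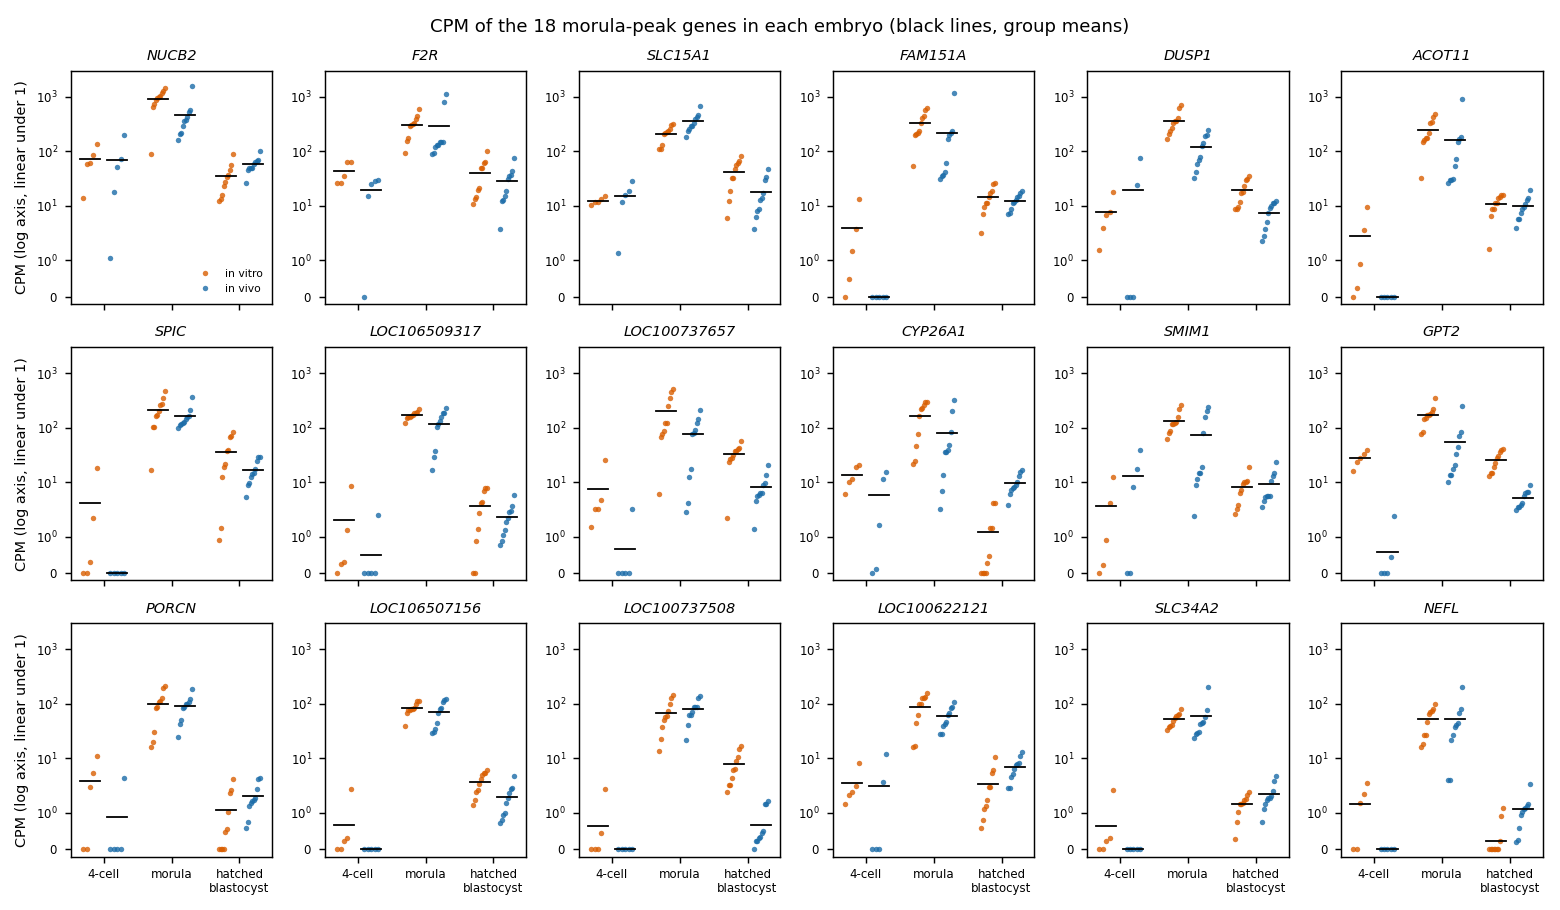
CPM of the 18 genes in each embryo (log axis, linear under 1), 1 panel per gene and 1 point per embryo, by stage, with in vitro embryos in orange left of in vivo embryos in blue and black lines at the group means. Morulae stand above the flanking stages for most genes, while SMIM1 spreads between 2.43 and 236 CPM in in vivo morulae.

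Of the signalling genes, F2R encodes the G protein-coupled receptor that thrombin cleaves. F2R had a lowest, median and highest level of 92.6, 308 and 586 CPM in in vitro morulae and of 90.0, 138 and 1107 CPM in in vivo morulae. Means in the flanking stages were 42.8 ± 19.1 CPM in in vitro 4-cell embryos and 40.03 ± 29.2 CPM in in vitro hatched blastocysts, and 19.7 ± 12.5 and 28.3 ± 20.9 CPM in the in vivo ones (SD, n = 5 and 10). F2R was thus lower on both sides of the morula stage, and it was detected in all embryos there but 1 in vivo 4-cell embryo.

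DUSP1, a phosphatase of MAP kinases and an immediate early gene, was present at 17.9, 1.54, 3.88, 7.565 and 6.88 CPM in the 5 in vitro 4-cell embryos and at 0, 0, 0, 74.6 and 23.5 CPM in the 5 in vivo ones. In morulae its lowest, median and highest levels were 170, 341 and 706 CPM in vitro and 31.6, 103 and 248.5 CPM in vivo. In hatched blastocysts they were 8.70, 17.6 and 34.4 CPM in vitro and 2.28, 8.26 and 11.99 CPM in vivo. The peak was clear of both other stages in vitro, while in vivo the 4-cell embryo D1 (74.6 CPM) lay above 4 morulae.

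CYP26A1, the cytochrome that breaks down retinoic acid, was present at 20.3, 11.4, 6.06, 9.88 and 18.8 CPM in the in vitro 4-cell embryos and at 1.63, 0.101, 0, 15.6 and 11.2 CPM in the in vivo ones. In morulae the lowest, median and highest CYP26A1 levels were 21.7, 189.7 and 297 CPM in vitro and 3.14, 37.1 and 316.5 CPM in vivo. In hatched blastocysts they were 0, 0.366 and 4.22 CPM in vitro, where 4 of 10 embryos had no read, and 3.86, 8.46 and 16.8 CPM in vivo. In vitro the gene was almost gone by hatching, whereas every in vivo hatched blastocyst still held it and 3 in vivo morulae were no higher than the highest of them.

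PORCN, which acylates Wnt proteins, had a lowest, median and highest level of 16.2, 98.1 and 211 CPM in in vitro morulae and of 24.3, 93.0 and 190.0 CPM in in vivo morulae. Its mean in 4-cell embryos was 3.91 ± 4.60 CPM in vitro and 0.878 ± 1.96 CPM in vivo, where 4 of 5 embryos had no read. In hatched blastocysts it was 1.11 ± 1.43 CPM in vitro and 2.09 ± 1.31 CPM in vivo. The smallest of the 4 PORCN ratios was 25.5, and no morula overlapped another stage in either source.

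The carriers of the group move small nutrients across membranes. SLC15A1, the proton-coupled carrier of short peptides known from the gut, had a lowest, median and highest level of 108, 219 and 310.4 CPM in in vitro morulae and of 179, 311 and 671 CPM in in vivo morulae. Its highest level in a hatched blastocyst was 81.3 CPM in vitro and 47.7 CPM in vivo. All morulae stood above these, although the in vitro mean of 41.3 CPM in hatched blastocysts put SLC15A1 next to the 5-fold bound.

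SLC34A2, a sodium-dependent phosphate carrier of epithelia, had levels of 33.6, 51.4 and 80.9 CPM in in vitro morulae and of 23.5, 44.0 and 208 CPM in in vivo morulae (lowest, median and highest). In the flanking stages it reached at most 2.63 CPM in an in vitro and 4.83 CPM in an in vivo embryo, and it had no read in any in vivo 4-cell embryo. By reads, SLC34A2 was therefore close to an on and off pattern in both sources. Fewer genes of any kind were detected in in vivo than in in vitro 4-cell embryos, however. It overlapped no other stage in any morula.

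Among the enzymes, GPT2 is the mitochondrial alanine aminotransferase, which moves the amino group of alanine onto alpha-ketoglutarate, giving glutamate, and back. GPT2 was present at 38.6, 23.7, 15.7, 27.3 and 32.3 CPM in the 5 in vitro 4-cell embryos and at 0, 2.42, 0, 0 and 0.441 CPM in the in vivo ones. In morulae its lowest, median and highest levels were 76.9, 168 and 352 CPM in vitro and 10.1, 26.9 and 246 CPM in vivo. In hatched blastocysts they were 12.8, 25.2 and 40.7 CPM in vitro and 3.08, 4.87 and 8.87 CPM in vivo. The median was higher in vitro at each stage, and the in vitro and in vivo embryos did not overlap in 4-cell embryos and hatched blastocysts, while they overlapped in morulae.

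ACOT11, a thioesterase that splits fatty acyl-CoA, had levels of 31.8, 195 and 472 CPM in in vitro morulae and of 25.9, 62.8 and 889.6 CPM in in vivo morulae (lowest, median and highest). FAM151A, a membrane protein of unclear function, had levels of 52.4, 283 and 615 CPM in in vitro morulae and of 30.8, 115 and 1153 CPM in in vivo morulae. Both had no read in any in vivo 4-cell embryo, and in hatched blastocysts neither exceeded 25.6 CPM in either source. These genes overlap on chromosome 6 (below), and their values moved together from embryo to embryo. The ratio of FAM151A to ACOT11 within a morula lay between 1.22 and 1.65 in vitro (median 1.33) and between 1.13 and 2.34 in vivo (median 1.29).

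SPIC, an ETS transcription factor known in mice from red pulp macrophages, had levels of 17.0, 186 and 464.5 CPM in in vitro morulae and of 99.8, 135 and 356 CPM in in vivo morulae (lowest, median and highest). No in vivo 4-cell embryo had a SPIC read. In hatched blastocysts SPIC was spread between 0.917 and 81.9 CPM in vitro and between 5.32 and 29.0 CPM in vivo. In vitro the morula B2 (17.0 CPM) lay below several hatched blastocysts, and the other 9 lay above them all.

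NUCB2 encodes nucleobindin 2, a calcium-binding protein that is also the precursor of the peptide nesfatin-1. NUCB2 was present at 138, 83.3, 60.3, 57.6 and 13.8 CPM in the 5 in vitro 4-cell embryos and at 18.1, 201.5, 1.11, 71.6 and 51.1 CPM in the in vivo ones. In morulae its lowest, median and highest levels were 90.3, 972.5 and 1411 CPM in vitro and 160.2, 361.5 and 1555 CPM in vivo. In hatched blastocysts they were 12.3, 30.4 and 89.6 CPM in vitro and 26.2, 53.3 and 99.5 CPM in vivo. Apart from the in vitro morula B2 and the in vivo 4-cell embryo B1, morulae did not overlap the other stages.

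SMIM1 encodes a small membrane protein that carries the Vel blood group in humans. Its lowest, median and highest levels were 62.9, 119.8 and 260 CPM in in vitro morulae and 2.43, 16.6 and 236 CPM in in vivo morulae. The highest 4-cell embryo had 12.6 CPM in vitro and 38.7 CPM in vivo, and the highest hatched blastocyst 18.6 CPM in vitro and 23.7 CPM in vivo. SMIM1 thus rested on a minority of the in vivo morulae, and 6 of the 10 were within the range of the other stages.

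NEFL, the light chain of neurofilaments, had levels of 16.3, 56.1 and 100.3 CPM in in vitro morulae and of 3.99, 39.0 and 207 CPM in in vivo morulae (lowest, median and highest). It had no read in 7 of 10 in vitro hatched blastocysts and in any in vivo 4-cell embryo, and its highest level outside morulae was 3.51 CPM in vitro and 3.46 CPM in vivo. Its in vitro ratio of morulae over hatched blastocysts, 219.5, was the highest of the 18.

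Of the LOC transcripts, LOC106509317 (lncRNA) had levels of 121, 167 and 223 CPM in in vitro morulae and of 16.6, 125 and 225 CPM in in vivo morulae (lowest, median and highest). LOC100737657, a protein coding gene on the X chromosome, had levels of 6.01, 122 and 512 CPM in vitro and of 2.79, 79.3 and 214 CPM in vivo. The spread of LOC100737657 within in vitro morulae, a CV of 86.0%, was the highest of the 18 genes there, and that of LOC106509317, 16.3%, the lowest. LOC100737508 had levels of 14.0, 59.2 and 144 CPM in vitro and of 21.5, 79.0 and 141 CPM in vivo. The last of the 5, LOC106507156 and LOC100622121, were singled out after their values were seen, and had morula means of 83.0 ± 22.3 and 88.9 ± 51.1 CPM in vitro and of 72.2 ± 36.3 and 59.2 ± 27.2 CPM in vivo (SD, n = 10).

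Whether in vitro and in vivo morulae differed in these genes was tested with limma on log2(CPM + 1), a scale that understates the change of genes of a few CPM. A gene was called at a Benjamini-Hochberg adjusted p under 0.001, over all genes tested, and a log2 difference over 1. In vitro minus in vivo, 2 of the 18 genes passed, DUSP1 and GPT2, both higher in vitro. Over all 20570 genes tested 2.47% were called (308 higher and 201 lower), and over the 2945 genes of at least 50 CPM in morulae of both sources 3.16%. For none of the 18 did in vitro and in vivo morulae fail to overlap, against 0.778% of all genes.

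DUSP1 differed by 1.77 on the log2 scale (SE 0.33, 95% interval 1.08 to 2.45, adjusted p = 0.000714), with means of 363 ± 173 CPM in in vitro and 118 ± 73.9 CPM in in vivo morulae (SD, n = 10 each). GPT2 differed by 2.24 (SE 0.42, interval 1.37 to 3.11, adjusted p = 0.000721), with means of 173 ± 77.0 CPM in vitro and 54.8 ± 71.4 CPM in vivo. For both genes, the in vivo morula A3 was the highest of its group, at 248.5 CPM of DUSP1 and 246 CPM of GPT2. Both adjusted p values were close to the threshold of 0.001. When each of the 20 morulae was left out in turn, DUSP1 passed in 8 of 20 fits (log2 differences from 1.59 to 1.92, adjusted p from 0.000179 to 0.00171) and GPT2 in 5 of 20 (2.06 to 2.55, adjusted p from 1.64e-05 to 0.0018). DUSP1 was lost without any 1 of the in vitro morulae B2, C2, F1, F2, G1 and H1 or the in vivo morulae A2, B2, C2, D2, E2 and H1. GPT2 was lost without any 1 of the in vitro morulae A3, C2, D2, F1, F2, G1, G2 and H1 or the in vivo morulae A2, C2, D2, E2, F1, H1 and H2. Without the in vitro B2 and the in vivo F1 neither passed.

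The other 16 genes did not pass. SMIM1 had a log2 difference of 1.94 (SE 0.59, adjusted p = 0.0232) and SLC15A1 of −0.74 (SE 0.24, adjusted p = 0.0323). CYP26A1 had 1.58 (adjusted p = 0.0941), FAM151A 1.33 (adjusted p = 0.0829), ACOT11 1.31 (adjusted p = 0.0864) and NUCB2 1.04 (adjusted p = 0.0744). Values for PORCN (−0.09, interval −0.95 to 0.78), SPIC (0.11, interval −0.70 to 0.91) and SLC34A2 (0.10, interval −0.50 to 0.71) lay near 0 with wide intervals, and the sign of each turned under some of the other settings. In all, 15 of the 18 differences lay above 0, and their median was 0.72, beside 0.11 over all genes tested and −0.12 over the 2945 genes of at least 50 CPM. On CPM of the library total the medians were 1.02 for the 18 and 0.21 for all genes tested.

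Markers of stage moved with the source in morulae. Of 19 maternal transcripts tested, 8 were called higher in vitro (BMP15, ZP2, ZP4, WEE2, BTG4, MOS, H1FOO and NOBOX) and 0 lower, and of 19 trophectoderm genes 6 were called lower (KRT8, KRT18, GATA2, TFAP2A, DAB2 and PDGFRA) and 0 higher. The lowest, median and highest sums of the maternal list were 472, 800.0 and 3081 CPM in in vitro morulae, with B2 the highest, and 93.9, 334 and 420.3 CPM in in vivo morulae. Those of the trophectoderm list were 156, 502 and 880 CPM in vitro and 1373, 3066 and 5094 CPM in vivo, with A3 the lowest. The groups did not overlap in either sum. SYCP3 made up much of the maternal sum in morulae, with means of 519 CPM in vitro and 275 CPM in vivo. Unlike the 8 called genes, SYCP3 was higher there than in 4-cell embryos (103 CPM in vitro and 88.3 CPM in vivo). The part of the differences in both lists in those of DUSP1 and GPT2 was not tested.

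Lists for other cells were summed in morulae as well. The sums of the lists for blood cells reached at most 15.1 CPM in an in vitro and 15.4 CPM in an in vivo morula, with PTPRC and PPBP at 0 in all 20, and those for oviduct and uterine epithelium at most 25.3 and 18.7 CPM, with FOXJ1 and SPP1 at 0. The sperm list summed to between 31.5 and 59.2 CPM in vitro and between 31.7 and 72.5 CPM in vivo, mostly from ODF2, with PRM1, TNP1, ODF1 and SMCP at 0. The cumulus and granulosa list summed to between 24.8 and 83.1 CPM in vitro and between 56.1 and 130.4 CPM in vivo, with PTX3, TNFAIP6, INHA and FOXL2 at 0. Most of that sum came from SERPINE2 (means of 26.9 CPM in vitro and 71.6 CPM in vivo), VCAN (15.1 CPM in both) and INHBA (12.8 and 6.73 CPM). In none of these 4 lists was a gene called between the sources in morulae.

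In hatched blastocysts, where these genes were low, 3 of the 18 were called between the sources. Over all 17990 genes tested 4.27% were called (373 higher and 396 lower in vitro), and over the 2945 genes of at least 50 CPM in morulae 4.14%. GPT2 was higher in vitro by 2.06 on the log2 scale (SE 0.23, adjusted p = 2.63e-07), with means of 25.7 ± 10.5 CPM in vitro and 5.17 ± 1.88 CPM in vivo (SD, n = 10 each). LOC100737508 was higher in vitro by 2.26 (SE 0.31, adjusted p = 4.27e-06), with a lowest, median and highest level of 2.37, 6.31 and 17.1 CPM in vitro and of 0, 0.406 and 1.63 CPM in vivo. For both genes every in vitro hatched blastocyst lay above every in vivo one, and over all genes the groups did not overlap, in either direction, for 1.97%.

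CYP26A1 went the other way in hatched blastocysts. Its log2 difference was −2.50 (SE 0.34, interval −3.19 to −1.81, adjusted p = 4.13e-06), with means of 1.20 ± 1.68 CPM in vitro and 9.73 ± 4.19 CPM in vivo, and the groups met only at the upper end in vitro (4.22 CPM) and the lower end in vivo (3.86 CPM). In morulae its difference had the opposite sign and did not pass. Whether the 2 differences differ was not tested. All 3 calls held in 20 of 20 fits with 1 hatched blastocyst left out, CYP26A1 with log2 differences from −2.67 to −2.41 and adjusted p up to 1.38e-05.

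Hypoblast genes moved with the source at that stage, and 6 of 11 tested were called lower in vitro (SOX17, FOXA2, APOA1, APOE, COL4A1 and RSPO3). Their part in the CYP26A1 difference was not tested. Among the other 15 genes the log2 difference was 1.81 for LOC100737657 (adjusted p = 0.00114), 1.24 for DUSP1 (adjusted p = 0.00335), 1.18 for SLC15A1 (adjusted p = 0.0412), −0.78 for NEFL (adjusted p = 0.00707), −0.87 for NUCB2 (adjusted p = 0.0245) and −1.04 for LOC100622121 (adjusted p = 0.0282), none past 0.001. The median of the 18 was 0.16, beside −0.01 over all genes tested, and 11 of 18 lay above 0.

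In 4-cell embryos, with 5 embryos per source, limma called 0 of the 18 genes and 0% of all 19927 tested, also 0% of the 2945 genes of at least 50 CPM in morulae. At an unadjusted p under 0.05 there were 5820 genes, 5 of the 18 among them. edgeR on the recovered reads called 0 of all genes, and DESeq2 called 218 higher and 53 lower in vitro, both without the in vivo embryo B1. With the 6 groups in 1 fit, 3340 were called higher and 200 lower, and at an adjusted p under 0.05 in place of 0.001, 1080 and 60. The largest log2 difference of the 18 was that of GPT2, 4.32 (SE 0.68, adjusted p = 0.0239), the one gene of the 18 whose embryos did not overlap between the sources, as for 10.1% of all genes. DESeq2 called GPT2 as well, without B1, which had the most GPT2 of the in vivo 4-cell embryos (2.42 CPM). The median of the 18 was 0.95, beside 0.66 over all genes and 1.002 over the genes of at least 50 CPM in morulae, and 17 of the 18 lay above 0, SMIM1 being the exception (−1.06). The part of library quality in these values was not tested.

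**Figure D3:**
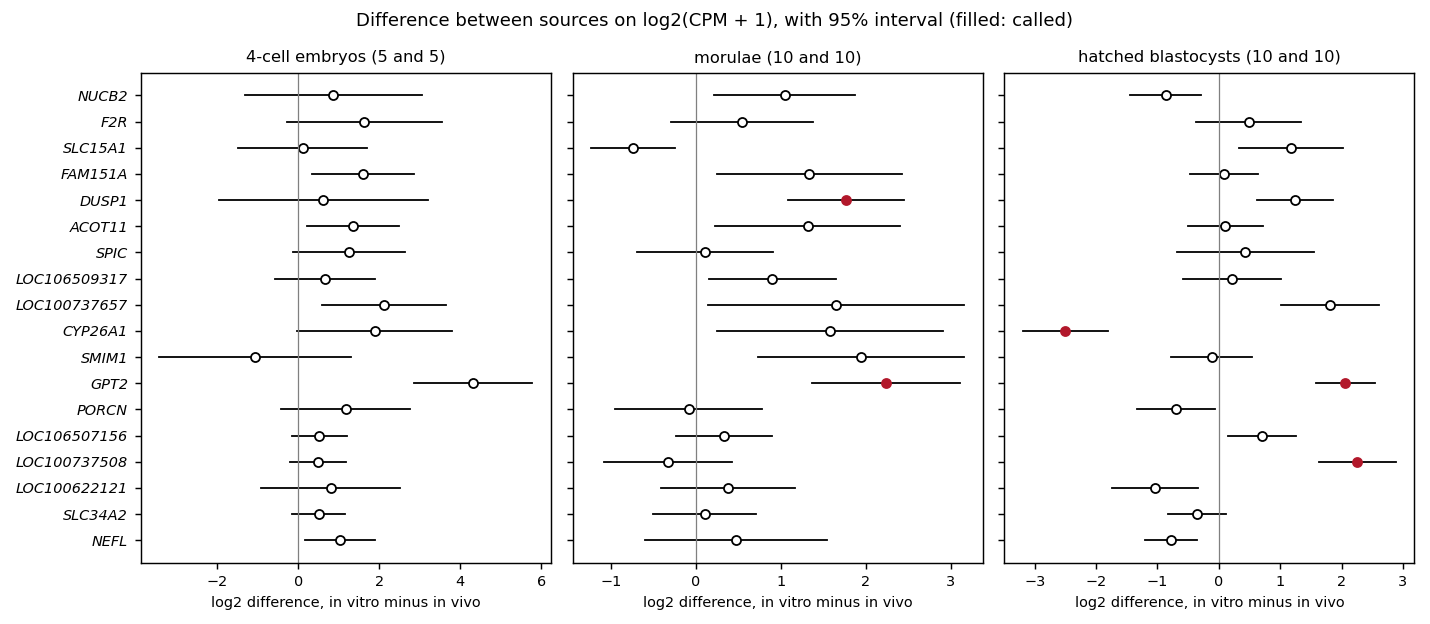
In vitro minus in vivo difference in log2(CPM + 1) of the 18 genes with 95% intervals, in 4-cell embryos, morulae and hatched blastocysts, each panel on its own axis, with called genes in filled symbols. GPT2 lies above 0 at all 3 stages (4.32, 2.24 and 2.06), and CYP26A1 lies at 1.58 in morulae and at −2.50 in hatched blastocysts.

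Morulae of 1 source were far from alike in these genes. The CV across 10 morulae had a median over the 18 genes of 51.4% in vitro and 89.2% in vivo, and it was higher in vivo for 14 of the 18. Over the 2945 genes of at least 50 CPM the medians were 29.3% in vitro and 38.0% in vivo, and 72.8% of those genes had the higher CV in vivo. The choice used the means of these same morulae, and a single high embryo can raise a mean. In this way GPT2, NEFL and SMIM1 depended on the in vivo A3, and SLC34A2 and SMIM1 on the in vivo G1. The wider spread of the 18 is therefore a description. In vitro, embryo B2 was the lowest of the 10 for 11 of the 18 genes and had the highest DUSP1 (706 CPM), and it was also the embryo with the highest maternal sum. In vivo, embryo G1 was the highest for 8 of the 18, with 1153 CPM of FAM151A, 889.6 CPM of ACOT11, 1555 CPM of NUCB2 and 208 CPM of SLC34A2 among them. F2R was highest in the in vivo morula B2 (1107 CPM). In vivo embryo A3 was the highest for SPIC, GPT2, NEFL and DUSP1 and the lowest for 4 others, among them SLC15A1 (179 CPM) and LOC100737657 (2.79 CPM).

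**Figure D4:**
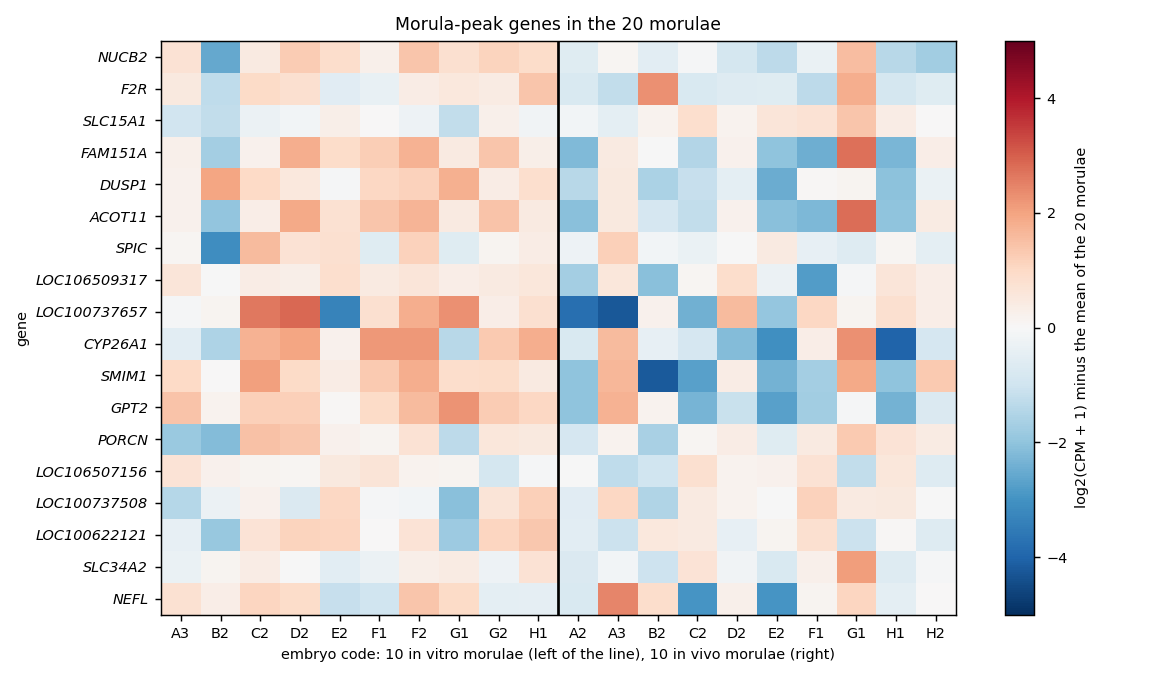
Level of each of the 18 genes in each of the 20 morulae, as log2(CPM + 1) minus the mean of the gene over all 20 (red higher, blue lower), with in vitro columns left of the line and in vivo columns right of it. In vitro B2 is low for NUCB2 and SPIC (90.3 and 17.0 CPM), and in vivo G1 is high for FAM151A and ACOT11 (1153 and 889.6 CPM).

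The sex labels of the morulae, given by the study from Y-linked transcripts, gave no call among these genes. In vitro, 3 morulae labelled female and 7 labelled male gave 0 calls among the 18 and 0% of all 19673 genes tested by limma, with 1090 genes at an unadjusted p under 0.05, none of the 18 among them. In vivo, with 5 of each label, limma called 0 of the 18 and 0% of all 17299 genes, with 930 genes at an unadjusted p under 0.05, among them NEFL, SMIM1 and DUSP1. The differences, labelled female minus labelled male, ran from −1.84 to 0.52 in vitro (median −0.42, lowest adjusted p 0.973) and from −0.36 to 2.04 in vivo (median 0.80, lowest adjusted p 0.874). Embryo A3 carries the female label in vivo and B2 in vitro. The Y-linked EIF1AY exceeded 10 CPM in 4 of 8 morulae labelled female and in 6 of 12 labelled male. This transcript alone, at that level, did not follow the labels. The study also used DDX3Y and EIF2S3Y, which were not set against the labels here, and described sperm still attached to morulae. Whether the labels are right was not tested, so the comparison by label, and its lack of calls, stays in doubt. PORCN and LOC100737657, the X-linked genes of the 18, did not pass in either source.

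The genes lie on 8 chromosomes of the Sscrofa11.1 assembly. Chromosome 6 holds 5 of the 18, beside 9.58% of the genes of at least 50 CPM, chromosome 2 holds 3 (8.29%), chromosome 8 holds 3 (3.60%), and chromosomes 14 and X hold 2 each (6.04% and 3.19%). On chromosome 6, FAM151A (157741164 to 157753800) and ACOT11 (157749917 to 157832280) overlap by 3884 bases, and reads in that stretch cannot be assigned to either. When their CPM were added up and tested as 1 gene in place of 2, an alternative chosen after seeing the data, the calls among the 18 stayed at 2. GPT2 (37625428 to 37669695), LOC100737508 (49069613 to 49084953, wholly within the lncRNA LOC110260991) and SMIM1 (65255792 to 65259129) lie elsewhere on chromosome 6.

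LOC106509317 lies on chromosome 2 (7841068 to 7842452), and its whole length of 1385 bases is inside BAD, a gene that met the same levels and was among those set aside. Its ratio to BAD within a morula lay between 0.227 and 0.300 in vitro and between 0.0865 and 0.3135 in vivo. Its level therefore cannot be told apart from reads of BAD. NUCB2 (41782594 to 41829829) and F2R (85642794 to 85659133) are far from it on the same chromosome. The neighbours of NUCB2, of which PIK3C2A lies 140 bases away, did not meet the levels of the choice.

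On chromosome 8, LOC100622121 (19449340 to 19452545) and SLC34A2 (19481127 to 19507903) lie 28582 bases apart. Between them lies the lncRNA LOC102159780, whose means were 1.61, 29.3 and 1.48 CPM in in vitro 4-cell embryos, morulae and hatched blastocysts and 1.03, 31.0 and 0.870 CPM in vivo. Its smallest ratio, 18.3, was above the 5-fold bound and its morula means were under 50 CPM, so it was not among the 18. The ratio of SLC34A2 to LOC100622121 within a morula was wide, from 0.260 to 3.92 in vitro and from 0.267 to 7.32 in vivo. LOC106507156 (120721243 to 120757475) overlaps the lncRNA LOC110262183, which had no read in any morula, by 10101 bases.

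The remaining genes are SPIC on chromosome 5 (82724322 to 82793527), SLC15A1 on 11 (67652808 to 67690457), NEFL and CYP26A1 on 14 (8991321 to 8996900 and 104561394 to 104567099), DUSP1 on 16 (51457924 to 51461095), and LOC100737657 and PORCN on X (23629744 to 23632620 and 42653696 to 42669526). NEFM, the neurofilament gene 24110 bases from NEFL, had means of 2.27 CPM in in vitro and 0.0579 CPM in in vivo morulae. The nearest relative of NEFL on the chromosome was thus low in morulae of both sources.

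Relatives and partners of 12 of the 13 named genes (all but SMIM1), listed after the 18 were known, did not meet the levels in any case. Around CYP26A1, 14 genes of retinoic acid synthesis, binding and reception were measured, and ALDH1A2, RDH10 and RXRB had their highest mean in morulae of both sources, RDH10, which makes retinal, with 99.8 ± 61.9 CPM in vitro and 173 ± 52.6 CPM in vivo (SD, n = 10). CRABP2, a binding protein of retinoic acid, went on upwards, with morula means of 100.1 CPM and hatched blastocyst means of 556.5 CPM in vitro, and 84.9 and 692 CPM in vivo. The Wnt ligands that PORCN modifies were low. WNT8B was the one ligand past the 5-fold bound in both sources once the minimum of 50 CPM was dropped, at morula means of 11.7 ± 10.5 CPM in vitro and 1.17 ± 2.56 CPM in vivo. WLS, which carries acylated Wnt proteins to the surface, had means of 324, 65.0 and 122 CPM in in vitro 4-cell embryos, morulae and hatched blastocysts, and of 120.1, 89.9 and 98.6 CPM in vivo.

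F2RL1, a receptor of the same family as F2R, did not peak in morulae. It had means of 28.9, 7.39 and 181 CPM in in vitro 4-cell embryos, morulae and hatched blastocysts and of 19.0, 48.7 and 186 CPM in vivo, and it was called lower in in vitro than in in vivo morulae. Of 15 further immediate early genes, FOS, JUNB, JUND, IER2 and ATF3 had their highest mean in morulae of both sources, FOS with 52.2 ± 29.4 CPM in vitro and 35.5 ± 33.2 CPM in vivo, while EGR1 had its highest mean in 4-cell embryos. None of the 15 was called between the sources in morulae, where DUSP1 was, though it passed in only 8 of 20 fits with 1 morula left out. The median log2 difference of the 15 was 0.58 there. ATF3 had morula means of 36.0 ± 24.9 CPM in vitro and 11.7 ± 14.4 CPM in vivo, so a higher in vitro mean was not particular to DUSP1. DUSP5 was the one of 9 other MAP kinase phosphatases with its highest mean in morulae of both sources (75.8 ± 68.8 CPM in vitro and 47.2 ± 25.7 CPM in vivo).

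Of the relatives of the carriers and enzymes, some were as high or higher in hatched blastocysts than in morulae and others were near 0 throughout. SLC15A4, which moves peptides and histidine out of lysosomes, had a morula mean of 37.5 CPM and a hatched blastocyst mean of 56.1 CPM in vitro, and 42.9 and 64.8 CPM in vivo. SLC20A1, the phosphate carrier of most cells, was high at all stages, with morula means of 279 ± 136 CPM in vitro and 290 ± 156 CPM in vivo. GOT1 and GOT2, the aspartate aminotransferases, did not fall by hatching, GOT2 with a morula mean of 130.8 CPM and a hatched blastocyst mean of 135.6 CPM in vitro, and 133.5 and 149 CPM in vivo. NUCB1, the paralogue of NUCB2, had means of 22.3 and 28.6 CPM in vitro and of 21.4 and 22.7 CPM in vivo at these stages. FAM151B, the paralogue of FAM151A, had 22.3 and 36.2 CPM in vitro and 39.8 and 36.2 CPM in vivo.

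Of a list of 20 genes that mark genome activation in humans, 10 were measured, and FAM151A and SLC34A2 are the members of it among the 18. The other 8 did not meet the levels. DPRX, a homeobox gene, came nearest, with means of 2.48, 83.1 and 5.30 CPM in in vitro 4-cell embryos, morulae and hatched blastocysts and 6.16, 46.4 and 0.579 CPM in vivo. LEUTX, DUXA and OTX2 had their highest mean in 4-cell embryos of both sources, OTX2 with 1185 CPM in vitro and 430.5 CPM in vivo. No gene of the lists for compaction and polarity, early pluripotency factors, trophectoderm or hypoblast met the levels.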

How the data were processed

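RNA of 50 single embryos was measured by Smart-seq2. According to their methods and processing notes, the authors used Trim Galore for trimming, HISAT2 for alignment to the Sscrofa11.1 assembly, FastQC with MultiQC for quality control and edgeR for their own tests (versions, counting tool and annotation release not given in the sources used here). The signal values deposited by the authors are CPM, reads per M of a scaled library total. Whole reads were recovered from the steps of the values, and 100% of values were whole to within 0.1 reads in all 50 embryos. The in vivo 4-cell embryo B1 was left out of count tests, as its step lies near a round decimal number, which left 49. The authors' own log2 fold changes, average log2 CPM, score (likelihood ratio), p-values and FDR were used nowhere, nor were the separate tables of hatched blastocysts.

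A gene entered a test when any embryo of the compared groups exceeded 0.5 CPM. Tests were made with limma 3.58.1 (trend) on log2(CPM + 1) in R 4.3.3, for in vitro minus in vivo at each stage and, in 1 fit of 4 groups, for labelled female minus labelled male in morulae of each source. edgeR 4.0.16 and DESeq2 1.42.0 on recovered reads were tried as alternatives, beside other pseudocounts (0.5 and 5), filters, thresholds and scalings, a fit of 6 groups, a block on shared embryo codes, and leaving out each embryo. The scripts were tested on simulated data. The 18 genes and the lists were chosen with earlier results of these data known, and the relatives after the 18 were known.

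Named in full were the 12 genes with a symbol and the highest geometric mean of the morula means, the 5 with the largest smallest ratio, up to 6 called genes per direction and, as LOC transcripts, those among the 10 most abundant. LOC100737508, as a called gene, LOC106507156 and LOC100622121 were added. Identifiers matched the reference annotation in all 30321 cases. No sequence was used.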

Additional observations from a re-analysis of the deposited data

Results flagged for a closer look

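Single embryos far from the rest of their group were looked for in 114 sets of values, the 18 genes and their sum in each of the 6 groups. The gap to the next value exceeded Dixon's bound in 25 sets. Chance flags about 1 in 20 sets of normally distributed values. CPM here were often skewed or at 0, and 7 sets of in vivo 4-cell embryos held only 0 and could not be flagged. The number expected by chance is therefore not known, and the values of 1 embryo are not independent.

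The in vitro 4-cell embryo A1 accounted for 9 of the 25, each time as the highest. It had 13.5 CPM of FAM151A, 17.9 of SPIC, 8.41 of LOC106509317, 25.1 of LOC100737657, 2.80 each of LOC106507156 and LOC100737508, 8.24 of LOC100622121 and 2.63 of SLC34A2, and its sum over the 18 genes was 405.9 CPM, against 186 CPM in the next embryo. It was the highest of the 5 for 16 of the 18 genes.

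The in vivo morula G1 accounted for 5, with 1555 CPM of NUCB2, 1153 of FAM151A, 889.6 of ACOT11 and 208 of SLC34A2, and a sum of 6797 CPM, against 3227 CPM in the next morula, A3. The in vivo morula A3 stood apart for SPIC (356 CPM), GPT2 (246 CPM) and NEFL (207 CPM). The in vitro morula G1 stood apart for GPT2, at 352 CPM.

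At the flanking stages the in vivo 4-cell embryo D1 was the one with reads of LOC106509317 (2.47 CPM) and of LOC100737657 (3.23 CPM). GPT2 was highest in the in vivo 4-cell embryo B1 (2.42 CPM) and PORCN in A1 (4.39 CPM). In hatched blastocysts SMIM1 had 18.6 CPM in the in vitro G3, LOC106507156 had 4.66 CPM in the in vivo F3, and NEFL had 3.46 CPM in the in vivo B3.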

How the results depend on the processing

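The number of genes that met the levels of the choice was 36 at 3-fold, 7 at 10-fold, 32 at 20 CPM and 8 at 100 CPM, in place of 18, and lay between 15 and 19 with 1 embryo left out. With group medians it was 14, without CYP26A1, GPT2, LOC100737657, NEFL, SLC34A2 and SMIM1 and with ETNPPL and TKTL1, and on the library total 19, without DUSP1 and SMIM1 and with ETNPPL, FAM118B and LOC100521229. Of the calls between in vitro and in vivo morulae (2), 0 were left with a pseudocount of 5, with no filter on low values and without the in vitro B2 and the in vivo F1. There was 1 with edgeR and with DESeq2 (DUSP1 each), 1 with 6 groups in 1 fit (GPT2), and 0 to 2 with 1 morula left out. Of all 20570 genes, edgeR called 364 higher and 237 lower, DESeq2 885 and 469, and the fit of 6 groups 676 and 337. For DESeq2 and the fit of 6 groups, 1 of 18 is thus near or below the share of all genes. In hatched blastocysts (3), 5 were called by DESeq2, 7 at an adjusted p under 0.05, and 5 without the in vitro D3 and E4. Of all genes these settings called 618, 583 and 440 higher and 464, 596 and 377 lower there, against 373 and 396 in the main fit. In 4-cell embryos (0), GPT2 was the 1 called by DESeq2, with 6 groups in 1 fit and at an adjusted p under 0.05. Of all genes these called 218, 3340 and 1080 higher and 53, 200 and 60 lower, so that 1 of 18 is near or below the share of all genes in the last 2. No setting gave a call of the 18 by sex label. Embryo codes shared by the sources gave correlations over 0.1 for 0 of 5 pairs of 4-cell embryos, 2 of 8 of morulae and 0 of 6 of hatched blastocysts, so they do not pair the embryos. With the codes as a block, 0 of the 18 were called in morulae, beside 67 higher and 85 lower of all genes. For the same embryos without a block, an alternative chosen after seeing the data, these were 0 of the 18, 82 and 41. With the block, 3 of the 18 were called in hatched blastocysts, beside 117 higher and 85 lower of all genes. In 4-cell embryos 0 of the 18 and 0 of all genes were called with it. DUSP1 and GPT2 each had an adjusted p of 0.00334 in morulae with the block. Signs of uncalled morula differences turned for SPIC (−0.12 with and without the block on the same embryos, −0.062 to 0.459 with 1 morula left out), PORCN (0.16 with edgeR, 0.20 with DESeq2, 0.21 on the library total, 0.20 without B2 and F1, −0.27 to 0.15 with 1 morula left out) and SLC34A2 (−0.13 with edgeR, −0.10 with DESeq2, −0.0040 to 0.340 with 1 morula left out). The median of all genes in morulae was 0.11 in the values as deposited, 0.21 on the library total, 0.23 with edgeR and 0.30 with DESeq2, beside 0.72, 1.02, 0.58 and 0.63 for the 18 genes. The calls of all genes in morulae split into 534 higher and 122 lower in vitro on the library total, against 308 and 201 as deposited. The causes were not tested. Depth limits values of a few CPM, which rest on a few reads.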
